A study of Mus musculus with 4 samples.

Results

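The cells described here were mature neutrophils of mouse liver with high counts of Retnlg and Mmp8 RNA. They were chosen by their own unique molecular identifier (UMI) counts. Barcodes counted as cells from 500 UMIs and 250 genes up, provided that mitochondrial UMIs did not exceed 10%. A cell was called a high neutrophil with at least 1 UMI of Csf3r, at least 5 of S100a8 and S100a9 together and at least 3 of Retnlg and Mmp8 together. It also had to have fewer than 3 of the 4 secondary granule genes Camp, Ngp, Ltf and Lcn2 detected, at most 2 UMIs of Ifit1, Ifit3 and Rsad2 together, 0 UMIs of Cd3e and at most 1 UMI of Cd79a and Cd79b together. The rule took 2050 of 32876 kept cells. Every one of these 15 genes was used for the choice, so their values are given as description, without a test.

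The study profiled CD45+ immune cells, sorted after a Percoll gradient that enriched mononuclear cells, in 4 libraries of 5 pooled mice each. All mice, WT included, had received tamoxifen for 1 week. The GS(+/D)Hep library came from mice heterozygous for a deletion of glutamine synthetase (the gene Glul) and the URI(+/D)Hep library from mice heterozygous for a deletion of URI (the gene Uri1), and Hep in both names marks the hepatocyte. There was 1 library of each of these genotypes and there were 2 WT libraries. The promoter of the recombinase, the age and the sex of the mice are not given in the sources used here. RNA was read by pairs of probes hybridised to fixed cells, so a count says that a probe pair was ligated. Kept cells numbered 7846 in the GS, 8481 in the first WT, 9096 in the URI and 7453 in the second WT library. Library totals ran from 24041049 UMIs in the second WT library to 51920505 in the URI library. No full barcode was shared between libraries. Between 32.9% and 37.0% of the high neutrophils of a library shared their 16-base bead barcode with a kept cell of another library, as happens when multiplexed samples are loaded together. The second WT library stood apart in the high neutrophils. Among 3016 well-detected genes, 174 differed more than 2-fold between the 2 WT libraries, against 14 between the GS and the first WT library.

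Neutrophils form in the bone marrow and fill their granules in a fixed order while they mature. Primary and secondary granule genes are read in precursors, gelatinase (tertiary) granule genes follow, and the cell then leaves the marrow under the control of Cxcr2, which favours release, and Cxcr4, which favours retention and return. Retnlg encodes a resistin-like protein found in myeloid cells. Mmp8 encodes the neutrophil collagenase, which is stored in secondary granules. In the liver, neutrophils circulate through the sinusoids and enter the tissue in response to chemokines and formyl peptides.

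In mm10, Retnlg (ENSMUSG00000022651) lies at chr16:48872621-48874496 on the plus strand and Mmp8 (ENSMUSG00000005800) at chr9:7558456-7568485 on the plus strand. Cxcr2 (ENSMUSG00000026180) lies at chr1:74153989-74161246 and Mmp9 (ENSMUSG00000017737) at chr2:164940780-164955850, both on the plus strand. Ly6g (ENSMUSG00000022582), the antigen by which mouse neutrophils are usually stained, lies at chr15:75155240-75159126 on the plus strand. The 250 bases before the start of Retnlg, Mmp8 and Ly6g are shown because Retnlg and Mmp8 define the cells and Ly6g rose with them more than the other genes plotted below. The sequences are those of RefSeq on GRCm38.p6, chr16:48872358-48872607, chr9:7558179-7558428 and chr15:75155011-75155260. They read 5′ to 3′ on the plus strand, and capitals mark matches on either strand to TTNNGNAA, a half-specified form of the C/EBP motif, or to GAGGAAGT, a PU.1-type motif.
Retnlg: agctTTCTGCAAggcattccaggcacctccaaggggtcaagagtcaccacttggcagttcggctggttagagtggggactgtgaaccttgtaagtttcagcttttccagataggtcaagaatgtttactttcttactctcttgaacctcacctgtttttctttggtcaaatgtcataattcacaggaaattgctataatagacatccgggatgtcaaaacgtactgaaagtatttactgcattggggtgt
Mmp8: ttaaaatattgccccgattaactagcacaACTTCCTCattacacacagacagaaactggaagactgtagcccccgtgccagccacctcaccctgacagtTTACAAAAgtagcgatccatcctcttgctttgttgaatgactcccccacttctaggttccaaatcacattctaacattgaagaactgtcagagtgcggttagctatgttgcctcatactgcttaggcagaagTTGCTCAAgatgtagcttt
Ly6g: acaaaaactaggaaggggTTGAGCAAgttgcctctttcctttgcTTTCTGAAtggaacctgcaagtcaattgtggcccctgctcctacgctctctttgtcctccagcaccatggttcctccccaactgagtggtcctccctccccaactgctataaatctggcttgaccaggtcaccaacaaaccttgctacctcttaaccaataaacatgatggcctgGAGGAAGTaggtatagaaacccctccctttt
The Retnlg promoter held 1 match to TTNNGNAA and 0 to GAGGAAGT. The Mmp8 promoter held 2 matches to TTNNGNAA and 1 to GAGGAAGT, and the first of the 2 annotated starts of Ly6g, shown here, also had 2 and 1. Of 32851 mouse promoter windows of 250 bases, 36.8% held TTNNGNAA and 2.44% held GAGGAAGT. These are matches of letters and were not tied to binding in these cells.

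The high neutrophils numbered 500 in the GS library, 6.37% of its 7846 cells (exact Clopper-Pearson 95% interval 5.84% to 6.94%). In the first WT library they were 419 cells or 4.94% (4.49% to 5.42%), and in the second WT library 769 cells or 10.3% (9.64% to 11%). In the URI library they were 362 cells or 3.98% (3.59% to 4.40%). These intervals cover counting error only. The GS share lay between the WT shares and the URI share lay below both, but 1 library against 2 cannot give an exact permutation p under 0.333. The sort and the density gradient also set how many neutrophils enter a library.

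Of all 3471 cells that met the Csf3r, S100a8 and S100a9, Cd3e and Cd79 criteria, the high neutrophils were the largest class in each of the 4 libraries. They were 68.0% of such cells in GS, 60.3% and 59.7% in WT and 48.1% in URI. Cells that met the rest of the rule with under 3 UMIs of Retnlg and Mmp8, called low neutrophils below, made up 21.9%, 16.1%, 26.8% and 20.1% in the same order. Of these, 49 of 161, 43 of 112, 111 of 346 and 67 of 151 had at least 1000 UMIs and few markers of other cell types. Of the high neutrophils, 460 of 500, 378 of 419, 720 of 769 and 334 of 362 did. Whether the remaining low barcodes were neutrophils was not tested, and the shares of every class depend on it. Secondary-granule neutrophils, with at least 3 of the 4 granule genes detected, made up 1.5%, 4.17% and 2.64% in the GS and WT libraries and 16.1% in the URI library, where they numbered 121 cells against 11, 29 and 34. Interferon-stimulated neutrophils made up 8.57% in the GS library, 19.4% and 10.9% in WT and 15.7% in URI.

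**Figure D1:**
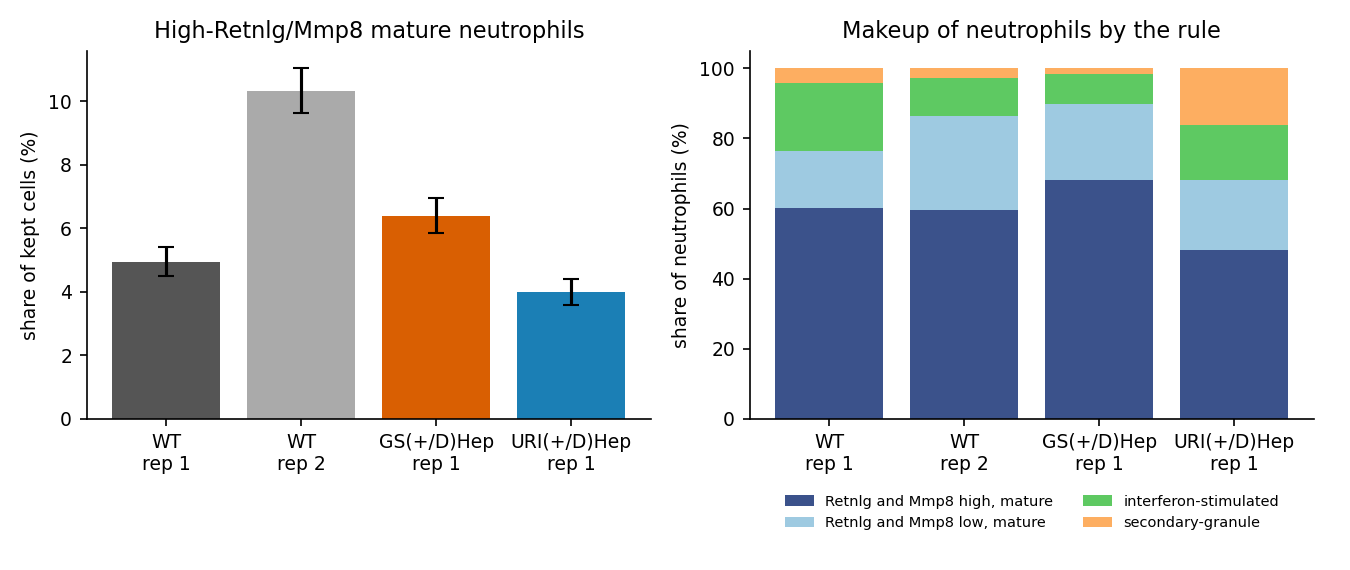
The left panel plots the high neutrophils as a percent of kept cells per library, with exact Clopper-Pearson 95% intervals that cover counting error only. The right panel plots the 4 classes as a percent of all neutrophils by the rule; high neutrophils are 48.1% to 68.0%, and the secondary-granule share is 16.1% in the URI library and at most 4.17% in the others. The low class includes shallow barcodes and barcodes with markers of other cell types.

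The median high neutrophil held 4043.5 UMIs in the GS, 3727 and 2795 in the WT and 4374 in the URI library. Low neutrophils were shallower barcodes, with medians of 973, 1085.5, 864 and 2788 UMIs in the same order. The cut on Retnlg and Mmp8 falls in a continuous distribution. At 2 UMIs, just outside, there were 183 cells and at 3 UMIs, just inside, 119. The median depth of the cells just outside was 1498 UMIs in the GS, 1576 and 1729.5 in the WT and 3016 in the URI library, and just inside it was 2808.5, 3039, 2263 and 2939. The median high neutrophil held 22 UMIs of the pair in the GS, 20 and 15 in the WT and 23 in the URI library. Retnlg was detected in 2038 and Mmp8 in 1375 of the 2050 cells. Of the granule genes the rule limits, 388 cells had none detected, 1255 had 1 and 407 had 2. Scrublet marked 6 of the high neutrophils in the GS, 6 and 16 in the WT and 5 in the URI library as doublets, and they were kept.

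Markers were read to check the name. The 11 neutrophil markers together held 129054 counts per 1000000 UMIs (CPM) in the GS, 137961 and 100439 in the WT and 102423 in the URI library, and all 11 were detected in each. Cxcr2, Mmp9, Ly6g, Il1r2, Hdc and Trem1 among them are not read by the rule. The rule required RNA of the others, so the sum was largely set by the choice. The 15 genes of the rule held 121527 CPM in the GS, 131040 and 91902 in the WT and 95556 in the URI library. Cd3e, Cd79a and Cd79b, which the rule limits, are among the T and B cell markers below. Kupffer cell markers summed to 0.469 CPM or less, and at least 4 of the 5 (Clec4f, Vsig4, Timd4, Cd5l and Marco) were at 0 in each library. The 8 T cell markers summed to 86.6 to 159 CPM, the 8 B cell markers to 21.1 to 49.4, the 12 hepatocyte markers to 134 to 207 and the 5 eosinophil markers to 30.9 to 61.0. Monocyte markers, 9 genes, were higher at 1082 CPM in the GS, 917 and 513 in the WT and 1448 in the URI library. Some of them were concentrated in few cells. The 5 cells richest in Fn1 held 83.2% of its UMIs in the GS, 93.5% and 81.1% in the WT and 94.7% in the URI library, and only 42 of 2050 cells held at least 2 UMIs of Ccr2, F13a1 and Fn1 together. Csf1r, also a monocyte marker here, was spread more widely. It was detected in 291 high neutrophils in the GS, 222 and 307 in the WT and 213 in the URI library. Its 5 richest cells held 13.9%, 16.6%, 9.62% and 20.2% of its UMIs in the same order. The markers that the rule did not read thus went with the label, apart from monocyte genes. Of these, Fn1 was held by few cells and Csf1r by many.

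Retnlg stood at 7809 CPM in the GS, 8004 and 7996 in the WT and 8465 in the URI library. In the other kept cells it stood at 235, 304, 420 and 650 CPM. Mmp8 stood at 1046 CPM in the GS, 860 and 533 in the WT and 756 in the URI library, against 44.9, 49.7, 41.1 and 144 in the other cells. Retnlg was thus even across libraries, whereas Mmp8 was lowest in the second WT library. Both were chosen on, so the contrast is a description. Secondary-granule neutrophils held more of both in 3 of 4 libraries for Retnlg (10542 in GS, 7048 and 13594 in WT, 11782 in URI) and in all 4 for Mmp8 (4978, 2310, 2053 and 2922). Among neutrophils, the cells described here were therefore high in this pair against the low class and not against the granule class.

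Cxcr2, the receptor for CXC chemokines, was not read by the rule. It stood at 2183 CPM in the GS, 2423 and 1386 in the WT and 1769 in the URI library, and at 74.8, 104, 94.5 and 78.7 CPM in the other kept cells. Mmp9, the gelatinase of tertiary granules, stood at 3454, 3628, 3360 and 3337 CPM in the same order, with 137, 164, 251 and 321 in the other cells. The libraries were close to each other for Mmp9, and Cxcr2 spread more widely, most of all between the WT libraries. Ly6g RNA was low, at 222 CPM in the GS, 182 and 160 in the WT and 238 in the URI library. It was detected in 31.0% of high neutrophils in the GS, 25.5% and 23.4% in the WT and 34.0% in the URI library, and in 1.00% to 2.13% of cells with Cd3e, which should lack it.

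Free RNA and doublets can give UMIs of these genes to cells that do not express them, and these sources were not told apart here. T cells here are cells with Cd3e detected. Retnlg was detected in 98.6% to 99.9% of the high neutrophils, by their choice, and in 11.8% to 26.4% of T cells. Mmp9 was detected in 96.9% to 98.3% of high neutrophils and 10.3% to 19.4% of T cells, and Cxcr2 in 90.6% to 96.4% against 5.02% to 6.40%. T cells were the deeper barcodes, with medians of 5113 UMIs in the GS, 4565 and 3414 in the WT and 5924 in the URI library. With every cell thinned to 500 UMIs, Cxcr2 was detected in 50.1% to 69.5% of high neutrophils and 1.46% to 2.15% of T cells. Cxcr2 and Mmp9 were therefore detected in a far larger share of the high neutrophils than of the T cells.

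Against all other kept cells, as a description, the 20 genes outside the rule with the largest and most even excess had mean log2 ratios of 4.01 to 4.62. They included the C-type lectin Clec4d, the amplifying receptor Trem1, the inflammasome regulator Nlrp12, the decoy receptor Il1r2, the niacin receptor Hcar2, the cytokine Il1f9, the chemokine Cxcl2, the inhibitory receptors Cd33 and Siglece, and Cd101, a surface protein of late neutrophils. Clec4d stood at 2489 CPM in the GS, 2328 and 3130 in the WT and 2167 in the URI library, against 73.9 to 182 in other cells. Trem1 stood at 1141, 983, 966 and 899 CPM, and Cd101 at 588, 581, 479 and 548. Stfa2l1 and Cstdc4, of the stefin protease inhibitors, also belonged to the 20, but near-identical copies make the assignment of their probes uncertain. Most other kept cells were not neutrophils, so these ratios do not set high apart from low neutrophils. Among cells of at least 1000 UMIs with few markers of other types, the pattern recognition receptors, Clec4d and Trem1 included, were summed. High against low neutrophils had 11112 against 11108 CPM in GS, 10029 against 10578 and 11274 against 11570 in WT and 9575 against 10417 in URI.

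Il1b was the most abundant inflammatory cytokine RNA in the cells. It stood at 10957 CPM in the GS, 11127 and 9747 in the WT and 8729 in the URI library, against 309 to 749 in other kept cells. A median cell held 42 UMIs in the GS, 37 and 23 in the WT and 35 in the URI library, and the 5th percentile was 1 or 2 UMIs in each. Chemokine RNA was less even. The median GS cell held 6 UMIs of Cxcl2 with the 95th percentile at 52, while Ccl3 had a median of 0 or 1 in each library and maxima of 43 to 114. Il1b was thus present across nearly all of the cells, whereas Ccl3 was at 0 or 1 UMI in the typical cell and high in few.

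**Figure D2:**
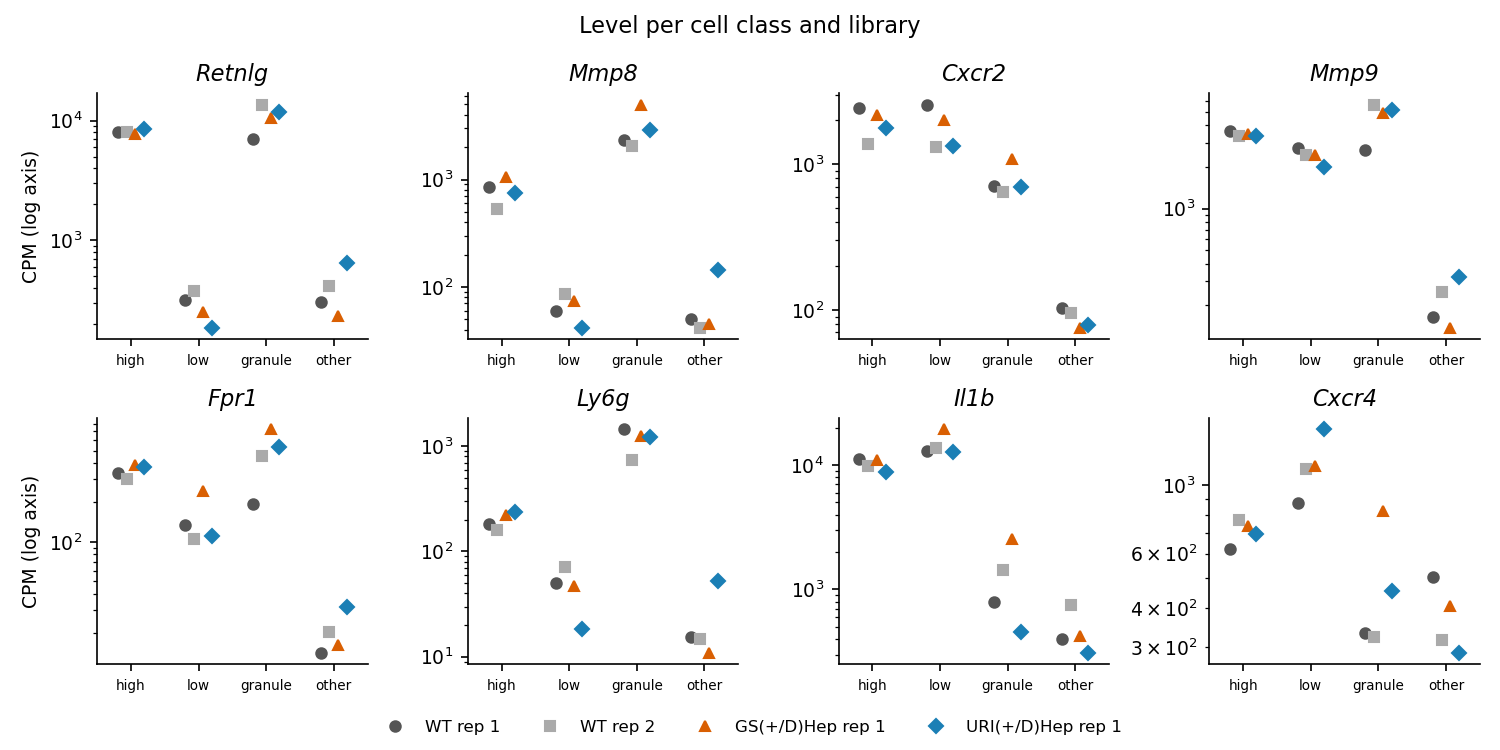
Each panel plots one gene in CPM on a log axis, with 1 point per library, in high neutrophils, low neutrophils of at least 1000 UMIs with few markers of other cell types, secondary-granule neutrophils and all other kept cells. Retnlg and Mmp8 separate high from low by choice; Cxcr2, Mmp9 and Il1b lie above the other kept cells in all 4 libraries, and Ly6g lies between low and secondary-granule cells in each library.

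The high neutrophils also varied among themselves. Within each library the cells were ordered by their Retnlg and Mmp8 UMIs per UMI and split into terciles, a description with no test in genes chosen after their values were seen. The pair rose from 1925 to 17788 CPM between the lowest and the highest tercile in the GS library, from 1927 to 17473 and from 2209 to 16555 in WT and from 1716 to 19134 in the URI library. Median depth rose with it, from 3705 to 4518 UMIs in GS, 3391 to 4263 and 2670 to 2991 in WT and 4130 to 5130 in URI. Ly6g stood at 74.9 CPM in the lowest and 416 in the highest tercile in the GS library, 47.4 and 291 in the first WT, 77.6 and 260 in the second WT and 70.5 and 407 in the URI library. That is a mean log2 ratio of 2.26, higher in 4 of 4 libraries.

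Granule and migration genes were divided. Mean log2 ratios of the highest over the lowest tercile, higher in 4 of 4 libraries, were 1.23 for Cd177, a neutrophil surface glycoprotein, 1.21 each for the formyl peptide receptors Fpr1 and Fpr2, 1.07 for Mmp25, a membrane-bound protease, 0.88 for Pglyrp1, 0.75 for Mmp9 and 0.36 for Cxcr2. The adhesion ligand Icam1 had a mean log2 ratio of -2.22, the chemokines Ccl4 and Ccl3 -1.30 and -0.85, the NF-kB inhibitor Nfkbia -0.67 and Cxcr4 -0.45, each lower in 4 of 4 libraries. Il1b stood at 12540 CPM in the lowest and 8127 in the highest tercile in the GS library, 13680 and 7930 and 11490 and 6600 in WT and 10165 and 6477 in URI. The integrin gene Itgam (-0.01), Lyz2 (-0.11) and Cxcl2 (0.00) were each higher in 2 libraries and lower in 2.

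The lowest tercile also held more RNA of the granule genes Chil3 and Cybb and of Cd74, at mean log2 ratios of -2.85, -1.56 and -1.46, each lower with rising Retnlg and Mmp8 in 4 of 4 libraries. The terciles were therefore formed again from cells of at least 1000 UMIs with at most 0.25% of their UMIs from markers of other cell types. Csf1r was 1 of these markers, although many high neutrophils held it. Its own mean log2 ratio was -0.92 before this step, lower in 4 of 4 libraries. The limit thus also acted on a gene that fell with rising Retnlg and Mmp8. Mean log2 ratios were then 2.01 for Ly6g, 1.66 for Cd177, 1.02 for Fpr1, 0.51 for Mmp9, -0.98 for Il1b, -1.69 for Icam1 and -0.57 for Cxcr4, with the same direction in 4 of 4 libraries for each. Cxcr2 came to 0.09, higher in 3 of 4 libraries. Lyz2 (lysozyme) came to 1.46, higher in 4 of 4, and Cxcl2 to -0.20, lower in 4 of 4. Cybb came to 0.69, higher in 3 of 4, Chil3 to -0.15, with 2 libraries in each direction, and Itgam to -0.12, lower in 3 of 4. The gradient of Ly6g, Cd177 and the formyl peptide receptors against Il1b and Icam1 was present in these cells too, and that of Cxcr2 was not clear.

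**Figure D3:**
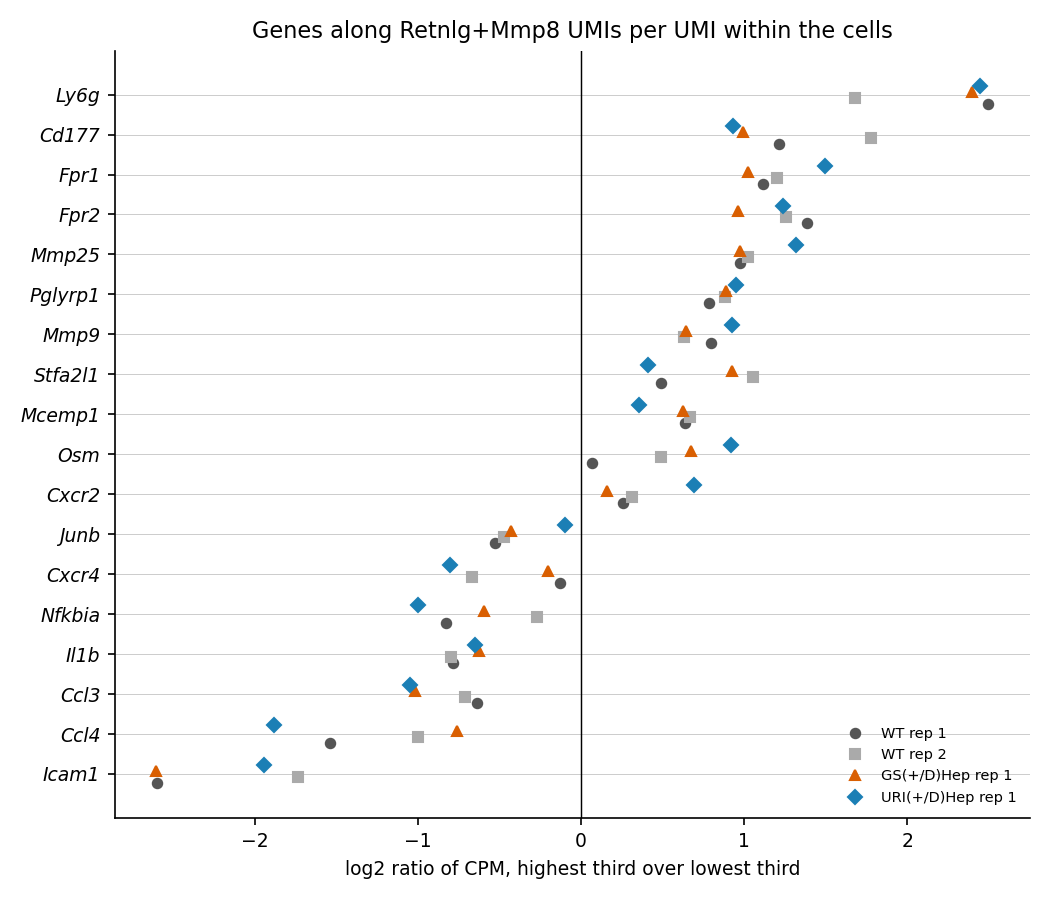
Each point is 1 library's log2 ratio of CPM (plus 5) in the tercile of high neutrophils with the most over the tercile with the least Retnlg and Mmp8 per UMI. Ly6g lies between 1.68 and 2.50 in the 4 libraries, Il1b between -0.80 and -0.63, and Icam1 between -2.60 and -1.73.

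High and low neutrophils were compared over the genes that the rule did not read, with UMIs summed per library and class and the library as a block. In all cells, edgeR's quasi-likelihood test called 1991 genes higher (22.7% of 8788 tested) and 2028 lower (23.1%), 45.7% in all, at a Benjamini-Hochberg adjusted p under 0.05. The genes that fell most were not those of neutrophils. Igha and Igkc, of plasma cells, had log2 changes of -3.86 and -3.41, H2-Aa, H2-Eb1, H2-Ab1 and Cd74, of antigen presentation, -3.31 to -2.91, and Thy1, Tcf7, Il21r and Cd8b1, of T cells, -2.95 to -2.61. Markers of other cell types took a median of 0.0568% to 0.0627% of UMIs in high neutrophils and 0.397% to 0.944% in low neutrophils, beside 1.23% to 1.46% in empty droplets. Scaling by library totals in place of TMM gave 623 higher and 4508 lower genes, with the median gene moved by -0.58 on the log2 scale.

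The comparison was therefore repeated, as a choice made after seeing the data, on cells of at least 1000 UMIs with at most 0.25% of UMIs from those markers. This left 460 high and 49 low neutrophils in the GS library, 378 and 43 in the first WT, 720 and 111 in the second WT and 334 and 67 in the URI library. High neutrophils then had more RNA of many secondary and tertiary granule genes, and low neutrophils more RNA of some NF-kB target and early response genes. The same test called 479 genes higher (7.16% of 6687) and 243 lower (3.63%). Library totals moved the median gene by -0.21 and called 210 higher and 512 lower, and 210 of the higher and 243 of the lower genes were called under both scalings. Because the classes were cut on 2 genes, a gene that varies with Retnlg and Mmp8 for any reason, depth included, appears here. The markers used to leave cells out included Csf1r, which many high neutrophils held, and the part of this in the comparison was not tested.

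Cd177 stood at 247 CPM in high and 33.9 in low neutrophils of the GS library, 234 and 75.8 in the first WT, 200 and 37.5 in the second WT and 200.1 and 46.2 in the URI library. The classes did not overlap. Its log2 change was 2.43 (SE 0.23, edgeR adjusted p = 5.5e-24). Ly6g stood at 241 against 47.5 CPM in GS, 197 against 50.5 and 162 against 71.2 in WT and 259.8 against 18.5 in URI. It was higher in 4 of 4 libraries, with a log2 change of 2.33 (SE 0.23, edgeR adjusted p = 3.1e-22). Wfdc21, which encodes a small secreted protein with a WAP domain, had 895 against 244 CPM in GS, 1063 against 253 and 794 against 281 in WT and 929 against 162 in URI, a log2 change of 2.15 (SE 0.14, edgeR adjusted p = 5.0e-53). Each of these 3 was called under both scalings.

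By list, 5 of the 7 secondary granule genes tested outside the rule rose and 0 fell, among them Cd177, Lyz2 at a log2 change of 1.62, Cybb (the catalytic subunit of the NADPH oxidase) at 1.55 and Hp (haptoglobin) at 0.80. Of 16 tertiary granule and secretory vesicle genes, 10 rose and 1 fell. Fpr1 stood at 417 against 244 CPM in GS, 366 against 135 and 311 against 105 in WT and 398 against 111 in URI, a log2 change of 1.59 (SE 0.16, edgeR adjusted p = 8.0e-20). Fpr2 followed at 1.24, Mmp25 at 1.07, Pglyrp1 at 1.01, Mcemp1 at 0.96, Adam8 at 0.91 and Mmp9 at 0.84. The median log2 change was 1.5 over the secondary and 0.59 over the tertiary list, beside -0.01 over all genes tested.

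Trafficking receptors split. Of 12 chemoattractant receptors, 4 rose and 4 fell. Cxcr1 rose by 1.13 and Cxcr2 by 0.44 (SE 0.10, edgeR adjusted p = 2.2e-04), but under library totals Cxcr2 came to 0.22 with an adjusted p of 0.14. Cxcr4 stood at 791 against 1153 CPM in GS, 635 against 876 and 777 against 1120 in WT and 732 against 1507 in URI, a log2 change of -0.45 (SE 0.11, edgeR adjusted p = 6.1e-04). It was lower in 4 of 4 libraries by CPM in these cells, but over all cells the comparison gave 0.43 (SE 0.11, edgeR adjusted p = 0.0027), the opposite sign, and -0.15 under library totals. Ccrl2, an atypical receptor that presents chemerin, had a log2 change of -1.60. Of 15 adhesion and migration genes 5 rose and 4 fell (2 and 5 under library totals), with a median of 0.17, and the integrin gene Itgax came to -1.44.

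Cytokine and chemokine genes moved in both directions, with 2 of 12 higher and 4 lower. Osm (oncostatin M) had a log2 change of 0.99 and Ccl6 of 1.47, whereas Ccl3 came to -0.82, Ptgs2 (cyclooxygenase) to -0.51 and Tnf to -0.49. Il1b stood at 11856 against 19313 CPM in GS, 11980 against 12978 and 10148 against 13680 in WT and 9568 against 12636 in URI. It was lower in 4 of 4 libraries by CPM, but the edgeR value was -0.21 (adjusted p = 0.084) and, under library totals, -0.42 with an adjusted p of 2.7e-05. Over all cells it was 0.83 (SE 0.11, edgeR adjusted p = 9.8e-07), again the opposite sign. Of 16 NF-kB targets and feedback genes, 0 rose and 8 fell. Icam1 stood at 51.2 against 149 CPM in GS, 27.6 against 211 and 94.3 against 375 in WT and 41.9 against 338 in URI, a log2 change of -2.13 (SE 0.18, edgeR adjusted p = 4.8e-28).

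The immediate early list had 0 rises and 8 falls among 26 genes. Atf3, a stress-induced transcription factor, came to -1.24, Nr4a1, a nuclear receptor induced within minutes of stimulation, to -1.12, Gadd45b to -0.99 and Dusp2 to -1.49. The median log2 change was -0.41 over the NF-kB list and -0.34 over the immediate early list. Of 7 NADPH oxidase genes 4 rose and 0 fell, but 2 of the 4 were called under both scalings. Of 18 cytokine receptors 1 rose, and of 21 interferon response genes 1 rose and 0 fell. Under library totals 8 of the tertiary granule genes rose and 2 fell, 2 cytokine genes rose and 7 fell, 0 NF-kB genes rose and 9 fell, and 0 early response genes rose and 15 fell; 4 cytokine receptors and 4 interferon response genes fell. The remaining named rises were Adpgk, Scrg1, Asb7, Atxn10, Ly6c1, Timp2, Lrrk2, Mgam and Atrn, at 1.66 to 2.40. Of these, Ly6c1 had the opposite sign over all cells. Its probes may not tell it from its close copy Ly6c2, which was among the markers used to leave cells out of this comparison. The remaining falls, at -2.19 to -1.42, were Otulinl, Abi3, Tgm2, Pmaip1, Bcor, Clec4n, Ccl5 and Gngt2.

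**Figure D4:**
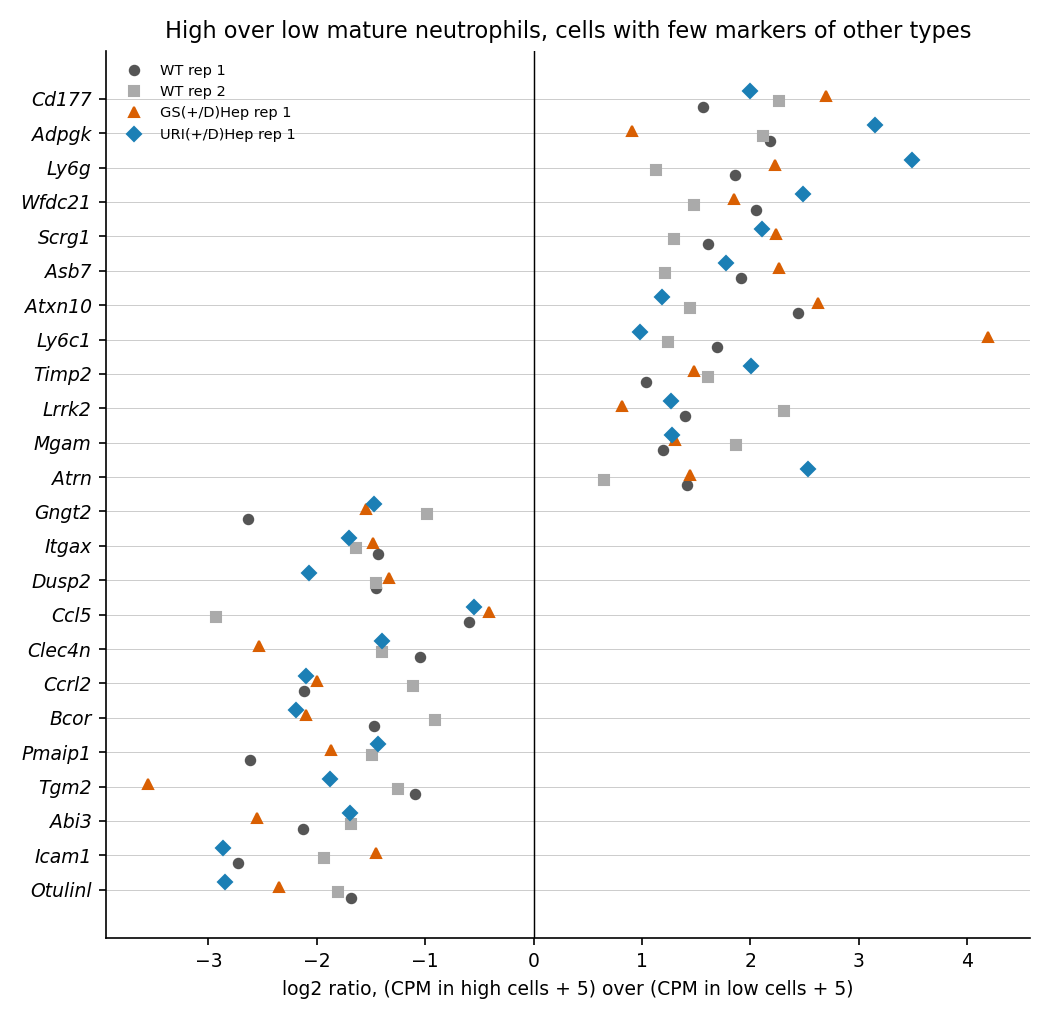
Each point is 1 library's log2 ratio, with 5 CPM added, of high over low neutrophils among cells of at least 1000 UMIs with few markers of other types, for the 12 largest rises and falls past the threshold. All points lie on one side for each gene, as the rule for naming them required, and Ccl5 ranges from -2.93 to -0.41.

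Against secondary-granule neutrophils, the less mature class, the high neutrophils had more cytokine, chemokine, NF-kB and early response RNA and less RNA of secondary granule genes. The classes were cut on the number of secondary granule genes detected, so a gene expressed together with Camp, Ngp, Ltf and Lcn2 had to differ, and the values of such genes are a description of the cut. The edgeR quasi-likelihood test called 1242 genes higher (15.3% of 8115) and 787 lower (9.7%), 25.0% in all. Library totals gave 1452 and 635. The granule class had 11 cells in the GS, 29 and 34 in the WT and 121 in the URI library, so the URI library carried most of its cells; without it 1036 genes were called in place of 2029. In the first WT library the granule class was shallow, with a median of 1225 UMIs, and its markers of other types took 0.761% of UMIs.

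Of 9 secondary granule genes that the rule did not read, 8 were lower past the threshold and 0 higher, a direction that the cut favours. Chil3 stood at 368 CPM in the GS, 228 and 88.2 in the WT and 691 in the URI library, against 4518, 8044, 3058 and 11287 in the granule class, a log2 change of -4.53 (SE 0.25, edgeR adjusted p = 6.3e-72). Few cells held much of it, with 83.6% of Chil3 UMIs in 5 cells in the GS, 74.7% and 47.5% in the WT and 66.8% in the URI library. Serpinb1a, an inhibitor of neutrophil elastase, stood at 14.1, 16, 6.17 and 16.5 CPM against 697, 989, 325 and 811, a log2 change of -5.80 (SE 0.25, edgeR adjusted p = 2.8e-117). Orm1 (-6.89), Itgb2l (-4.80), Anxa3 (-4.12), the granulocyte transcription factor Cebpe (-3.91), Cd177 (-3.69) and Cybb (-3.69) also fell. Ly6g RNA was lower too, by a log2 change of -2.58, so among the 3 classes it was highest in the granule class and lowest in the low class.

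Inflammatory genes were higher. Il1b stood at 10957 against 2524 CPM in GS, 11127 against 800 and 9747 against 1442 in WT and 8729 against 457 in URI, a log2 change of 3.18 (SE 0.25, edgeR adjusted p = 5.8e-36). Of 11 cytokine and chemokine genes, 8 rose and 0 fell, with Ptgs2 at 3.75, Ccl4 at 3.51, Ccl3 at 3.07 and Cxcl2 at 2.84. Of 16 NF-kB genes 15 rose and 0 fell, and of 26 immediate early genes 22 rose and 0 fell. Atf3 stood at 372, 284, 683 and 424 CPM in the high neutrophils of the GS, WT and URI libraries and at 41.8, 0, 93.6 and 16.5 in the granule class. The median log2 change was 2.41 over the cytokine, 1.38 over the NF-kB and 1.55 over the early response list, beside 0.08 over all genes.

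Receptors rose with them. Of 18 growth factor and cytokine receptors 14 rose and 0 fell, of 17 pattern recognition receptors 12 rose and 1 fell, and of 13 chemoattractant receptors 9 rose and 2 fell. Cxcr2 stood at 2183 against 1088 CPM in GS, 2423 against 709 and 1386 against 649 in WT and 1769 against 701 in URI, a log2 change of 1.24 (SE 0.21, edgeR adjusted p = 4.7e-08). Cxcr4 rose by 0.58 (edgeR adjusted p = 0.022), though Cxcr4 in the GS library was 739 against 823 CPM. Mmp9 stood at 3454 against 4936 in GS, 3628 against 2662 and 3360 against 5630 in WT and 3337 against 5131 in URI. Its value of -0.43 did not pass (edgeR adjusted p = 0.14). Of 19 neutrophil transcription factors 15 rose, among them Junb (2.03) and Klf2 (1.33), and 2 fell. Of 14 cell cycle genes 1 rose and 6 fell. Apoe (4.66) and Fn1 (4.22) were the largest rises, but both were concentrated in few cells. The 5 richest cells held 53.7% of Apoe UMIs in GS, 53.7% and 32.0% in WT and 40.6% in URI, and the share for Fn1 is given above. In the second WT library Fn1 stood at 32.6 CPM against 31.2 in the granule class.

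The GS and URI libraries were each compared with the 2 WT libraries, which they share as controls. The question was whether a deletion in hepatocytes goes with a change in these neutrophils. The deleted genes were read first. Glul stood at 57.7 CPM in the high neutrophils of the GS library, 69.4 and 54.2 in WT and 61.0 in URI. Uri1 stood at 11.4 CPM in URI, 4.91 and 5.29 in WT and 9.38 in GS. Neither checks the labels, since the names place both deletions in hepatocytes and these cells are neutrophils.

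No gene passed in either comparison (0.0% of 8295 tested called for GS and 0.0% for URI by edgeR's quasi-likelihood test, adjusted as above). At an unadjusted p under 0.05 there were 91 genes for GS and 148 for URI by edgeR, and DESeq2 called 0 in both with 15 and 22 unadjusted. Other settings did give calls. Without the filter on low counts edgeR called 10 genes for GS and 14 for URI, with at least 2 UMIs of Retnlg and Mmp8 9 and 13, and with at least 6 UMIs 0 and 12. With 1 library against 2, the p-values measure the spread between the WT libraries, which may be technical. In data simulated at this size the test found 81% of genes changed 4-fold and 4% of genes changed 2-fold. The simulation gave every gene the same spread (dispersion 0.0599) and changed only genes above a minimum level. These shares are thus not the power of the test on the measured genes, whose spread was not simulated gene by gene.

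Cxcr2 had a log2 difference of 0.19 (SE 0.40) for GS and -0.27 (SE 0.41) for URI. Mmp9 had -0.02 (SE 0.33) and -0.24 (SE 0.34), and Il1b 0.06 (SE 0.34) and -0.43 (SE 0.35). Cxcr4 had 0.08 (SE 0.34) and -0.18 (SE 0.34). Apart from Il1b in URI, each of these differences was smaller than its SE. The Glul values were -0.10 (SE 0.37) and -0.19 (SE 0.37), and the Uri1 values 0.86 (SE 0.64) and 0.97 (SE 0.64).

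Lists were described by how many genes lay outside both WT libraries. Over all genes, 30.8% lay above and 29.0% below both WT libraries in GS, and 30.9% and 30.2% in URI. Under library totals these shares were 31.4% and 28.6% in GS and 47.1% and 16.6% in URI. In the GS library, 16 of 23 interferon response genes lay below and 2 above, with a median log2 difference of -0.38. Oasl2, an oligoadenylate synthetase-like gene, stood at 357 CPM in GS, 684 and 365 in WT and 392 in URI, and Zbp1, a nucleic acid sensor, at 25.8, 60.8, 46.3 and 37.6. The first WT library was the high one for both. The rule limits Ifit1, Ifit3 and Rsad2 and so takes the most interferon-stimulated cells away, and those were 8.57% of neutrophils in GS against 19.4% and 10.9% in WT. In the URI library 14 of 23 lay below and 3 above (6 and 4 under library totals), with a median of -0.33.

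**Figure D5:**
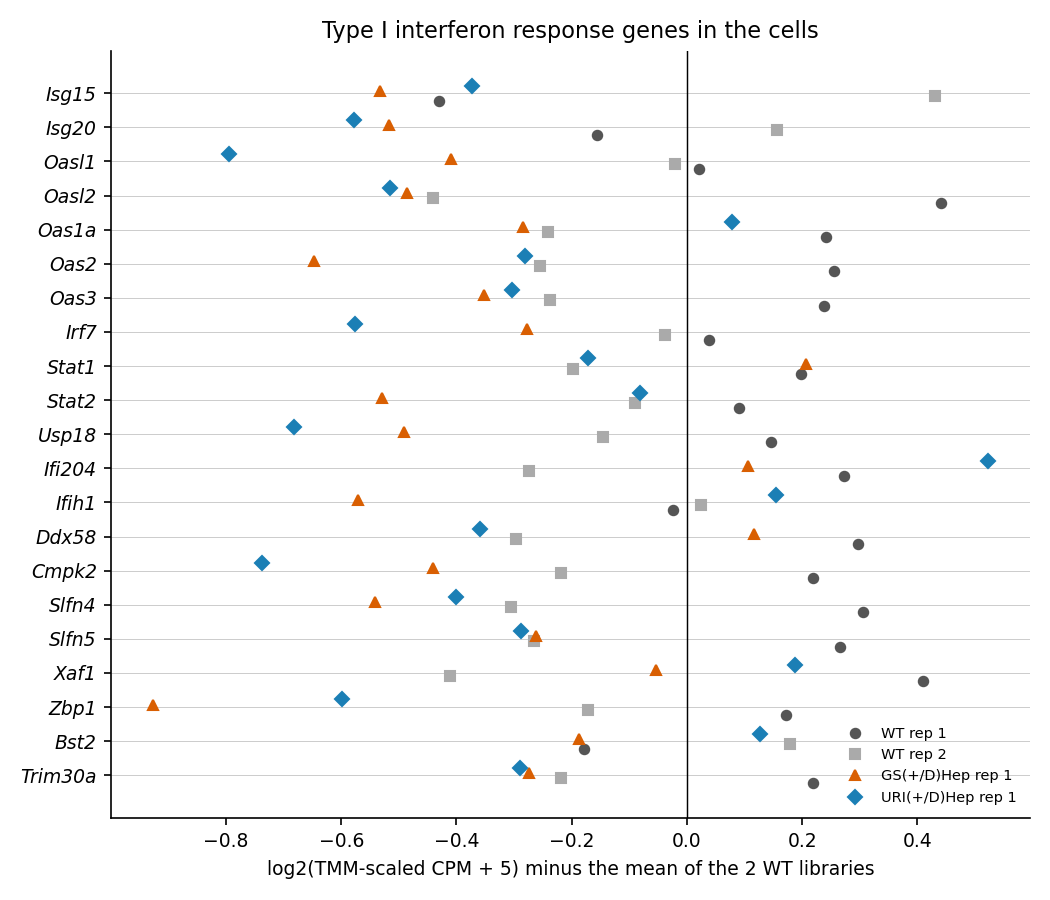
Interferon response genes of at least 10 CPM are plotted per library as log2 of TMM-scaled CPM (plus 5) minus the mean of the 2 WT libraries. The GS points lie mostly left of both WT points, as for Zbp1 at -0.93, while the 2 WT libraries themselves stand apart, as for Oasl2 at 0.44 and -0.44.

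Of 7 secondary granule genes outside the rule, 6 lay above both WT libraries in GS and 0 below (median 0.33), and 7 of 15 adhesion genes lay above and 0 below (median 0.15). In GS, 5 cells held 83.6% of Chil3, 53.0% of Cybb and 27.6% of Lyz2 UMIs. In cells of at least 1000 UMIs with few markers of other types, the medians were 0.20 for secondary granule and 0.23 for adhesion genes. The summed secondary granule list was then 5916 CPM in GS, between the WT libraries at 6049 and 4497. Of 26 immediate early genes, 13 lay below and 4 above (median -0.38), and of 17 NF-kB genes 3 lay below and 0 above (median -0.18). The second WT library was highest of the 4 in the summed NF-kB list, with 12864 CPM against 6957 to 9723, and in the summed immediate early list, with 56898 against 44649 to 48002. In the URI library 7 of 9 stefins lay below both WT libraries and 1 above, with a median of -0.79, and the same held for 6 and 1 under library totals. Probes of near-identical stefin copies may cross-read, so these 9 genes may not be separate readings. Of 17 glycolysis genes 10 lay below and 1 above, but 6 and 4 under library totals, so that pattern depended on scaling. Of 12 cell cycle genes 9 lay above and 0 below in URI under either scaling, with a median of 1.47. All 39 UMIs of Mki67, a proliferation marker, came from 5 cells, and the other cell cycle genes were not read this way. In cells of at least 1000 UMIs with few markers of other types, the median over the 4 cell cycle genes still tested was -0.02. The summed list was then 314 CPM in URI, between the WT libraries at 216 and 374.

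The genes with the smallest p-values, picked after seeing them and not called, showed how the libraries differ. Prok2, a secreted chemoattractant of neutrophils, stood at 4.69 CPM in GS, 23.9 and 29.1 in WT and 13.1 in URI, a log2 difference for GS of -2.50 (SE 0.52). G0s2, an inhibitor of lipolysis, stood at 248 CPM in URI, 569 and 1245 in WT and 399 in GS, a log2 difference for URI of -2.05 (SE 0.52). Chil3 stood at 691 CPM in URI, 228 and 88.2 in WT and 368 in GS, with the shares in 5 cells given above. The Y-linked genes Eif2s3y and Ddx3y stood at 1.84 and 3.68 CPM in the first WT library, 26.0 and 59.1 in the second WT, 29.5 and 44.1 in GS and 112 and 143 in URI. The pools thus differed in RNA of Y-linked genes, and the part of this in the comparisons was not tested.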

How the data were processed

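Per the labels' protocols, collagenase digests of liver were freed of red cells, the interface of a Percoll gradient was sorted for CD45+ cells, and fixed cells of 5 pooled mice per library were hybridised to a mouse probe set and multiplexed. The deposited matrices hold whole-number UMI counts per gene and barcode, not normalised. The submitters' processing notes name Cell Ranger 8.0.0 and mm10. Only genes with a probe can be read, and probes of near-identical genes may cross-read.

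The cells, gene lists and comparisons were chosen with earlier results of these data known. UMIs were summed per library and class and compared by the quasi-likelihood test of edgeR (TMM, filterByExpr, Benjamini-Hochberg at 0.05 over all genes tested, rule genes left out). GS and URI against WT were fitted over 4 libraries with 1 residual degree of freedom, and classes with the library as a block and 3. The labels do not say how mice were assigned to the pools. CPM are counts per 1000000 UMIs of a class in a library. Free RNA was read from barcodes under 100 UMIs. Scrublet's automatic threshold failed in the first WT library, where the mean of the other thresholds was used; doublets were marked, at 4.64% to 5.08% of kept cells, and kept.

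Named against other kept cells were the 20 genes outside the rule, at 100 CPM or more, with the largest smallest-of-4 log2 ratio. Named per class comparison were the 12 largest rises and falls past the threshold in the same direction in 4 of 4 libraries at 50 CPM or more, plus from each list the 4 most abundant genes and any past the threshold. For GS and URI the limit was 10 each way, and none qualified. Cxcr2, Mmp9, Il1b, Cxcr4, Uri1 and Glul were always given, 1 further gene of the rule is not reported here, and terciles and smallest p-values used genes picked after seeing them. On data simulated with the same spread for every gene, the blocked test recovered 80% of 2-fold and 100% of 4-fold changes. It also called 6 of 7452 unchanged genes. The simulated classes had the same levels except for the changed genes, which rose and fell by turns. The simulation therefore could not test the scaling, on which the calls against low neutrophils depended. Tools were edgeR 4.0.16, DESeq2 1.42.0 and limma 3.58.1 in R 4.3.3, and scanpy 1.11.5, scipy 1.17.1, pandas 2.3.3 and matplotlib 3.10.9 in python 3.11.15.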

Additional observations from a re-analysis of the deposited data

How the results depend on the processing

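Of the alternatives run for GS and URI, 3 gave calls. Without the filter on low counts 10 genes were called for GS and 14 for URI, and with at least 2 UMIs of Retnlg and Mmp8 9 and 13. With at least 6 it was 12 for URI. Among the genes so called were Prok2 and Rgcc for GS and Chil3, Fn1, Mki67 and Eif2s3y for URI. No paired analysis was possible because the GS and URI libraries share only replicate number 1 with WT. Fits without 1 WT library have no residual degrees of freedom and give values without a test. For GS, leaving out the first and then the second WT library gave Cxcr2 values of 0.638 and -0.165, Mmp9 0.0232 and -0.0852, Il1b 0.152 and -0.0369, Cxcr4 -0.0801 and 0.235 and Glul 0.0705 and -0.277, so each changed sign with the WT library used. Mmp9 for GS was 0.0024 with at least 2 UMIs of the pair and 0.0552 in cells with few markers of other types. For URI the same 2 fits gave Cxcr2 0.173 and -0.622, and thinning to 500 UMIs reversed Cxcr4 to 0.16; the cause was not tested.

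Against low neutrophils 4019 genes were called in all. Thinning every cell to 500 UMIs gave 2070, at least 1000 UMIs per cell 2543, and cells with few markers of other types 722, also 722 under library totals. Leaving out 1 library gave 3135 to 3649 and the fit without the library as a replicate block 2843. Cxcr4 reversed to -0.15 under library totals, and in cells with few markers to -0.45 and, with totals, -0.66. Il1b reversed there to -0.21 and -0.42, and Ly6c1 to 1.88 and 1.67. Against secondary-granule neutrophils, 2029 became 402 after thinning, 1036 to 1926 without 1 library and 1881 without the replicate block. Of 684 gene values against low neutrophils 632 kept direction and call, and of 391 against secondary-granule neutrophils 381 did. These values came from 46 and 28 genes. Most of the genes had been named for large changes past the threshold, in the same direction in every library, in these same data. That choice favoured agreement, so the tally does not measure how stable the calls were over all genes tested.

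The share of high neutrophils depended on depth. With the rule read on cells thinned to 500 UMIs it was 3.84% in GS, 3.55% and 6.29% in WT and 2.81% in URI, and at 6 UMIs of the pair or more 5.54%, 4.20%, 8.55% and 3.49%. In the second WT library it was 11.2% at 1000 UMIs or more and 11.6% at 2 UMIs of the pair.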
